A study of Mus musculus with 6 samples.

Results

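Cubn, Amn, Dab2, Lrp2, Fcgrt, Pigr and Prdm1 are 7 genes of protein uptake and antibody transport in the neonatal enterocyte. They were read through every probe set that the platform annotation pairs with 1 of them alone, which gave 14 of the 45101 probe sets on the array. Of these 14 probe sets 13 passed the filter on dim signals, and each gene kept at least 1. The data came from Affymetrix mouse arrays of epithelial cells shaken off the small intestine in EDTA, taken from C57BL/6 mice aged 14 days. In 3 arrays, called replacement here, the genotype was Ecadflox/Ncad;Vil-Cre: a floxed E-cadherin allele, an N-cadherin allele, and Cre recombinase under the villin promoter, which is active in gut epithelium. The other 3 arrays, called control, were of E-cadherin-positive littermates whose genotype is labelled only as control, so any floxed, Cre or N-cadherin allele they carried is unknown here. Cells that do not express villin keep the floxed allele unrecombined. The labels do not say whether each array was a separate animal, so p-values speak of the variation among these arrays, which may be technical.

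The enterocyte of a suckling mouse takes up milk proteins whole and digests them in large lysosomes, a capacity that is lost at weaning. Cubilin (Cubn) binds many protein ligands at the apical surface but has no membrane span of its own. Amnionless (Amn) anchors cubilin and brings it to the surface. Dab2 is an adaptor that links receptor tails to the clathrin coat, and megalin (Lrp2) is a giant receptor of the LDL receptor family that works beside cubilin in the kidney. The neonatal Fc receptor (Fcgrt) carries maternal IgG from milk across the epithelium, and the polymeric immunoglobulin receptor (Pigr) carries IgA the other way, into the lumen. Prdm1 (Blimp1) is a transcriptional repressor that delays adult enterocyte genes until weaning in the mouse.

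The log2 ratio of control 2 to control 3 had an SD of 0.115 over 5109 bright probe sets, against 0.347 to 0.564 for other pairs within a group. That value lay within the 0.0812 to 0.134 of 18 hybridization control probe sets over all pairs, so these arrays were averaged and counted as 1 replicate, which left n = 3 replacement and n = 2 control. Each array had 55.1% to 61.8% of its probe sets at or above 16 intensity units, the value to which lower readings were raised (the floor). Cdh1 (E-cadherin) had 1073, 1175 and 1357 units in the replacement arrays, against 2757, 2335 and 2204 units in the control arrays, a log2 difference of -1.06 (SE 0.240, limma adjusted p = 0.0250). Both Cdh2 (N-cadherin) probe sets lay under the floor on all 6 arrays. The values thus show no N-cadherin signal in the replacement arrays, and whether these probe sets can read the N-cadherin allele is unknown here. Xist, which is expressed in females, was high in replacement 2, replacement 3 and control 1 (440, 578 and 2305 units). It was low in replacement 1, control 2 and control 3 (37.5, 27.8 and 29.3 units), so the groups were not balanced for Xist. The high arrays differed in level, and the labels do not say whether an array was 1 animal. Sex as read from Xist below is therefore a class of high or low Xist, and an array of mixed sex cannot be told apart. Enterocyte markers were at high levels in both groups: 11 of 11 listed genes passed the filter, and their summed intensity was 34222 to 45080 in the replacement arrays and 36903 to 39875 in the control arrays. In that list Krt20 (keratin 20) rose by 1.35 and Anpep (aminopeptidase N) fell by 1.16 on the log2 scale.

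The stretches of 250 bases before the annotated starts of Cubn, Amn and Dab2 are shown because these 3 genes act at consecutive steps of uptake and all fell. The sequences are from RefSeq, build GRCm38.p6, written 5′ to 3′ on the strand of the gene. Capitals mark GAAAG or its reverse complement CTTTC, the core of the motif bound by Prdm1.
Cubn, chr2:13491877-13492126, minus strand: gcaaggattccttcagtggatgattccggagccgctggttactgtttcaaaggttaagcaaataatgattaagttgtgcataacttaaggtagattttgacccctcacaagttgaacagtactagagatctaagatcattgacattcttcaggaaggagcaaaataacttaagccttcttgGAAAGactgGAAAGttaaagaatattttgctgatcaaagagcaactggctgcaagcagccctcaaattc
Amn, chr12:111270846-111271095, plus strand: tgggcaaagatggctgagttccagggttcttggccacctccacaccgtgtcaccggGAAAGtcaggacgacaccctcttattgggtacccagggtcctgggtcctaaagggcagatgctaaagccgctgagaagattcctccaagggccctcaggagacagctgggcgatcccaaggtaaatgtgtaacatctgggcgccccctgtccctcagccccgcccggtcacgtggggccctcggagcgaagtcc
Dab2, upstream start, chr15:6299539-6299788, plus strand: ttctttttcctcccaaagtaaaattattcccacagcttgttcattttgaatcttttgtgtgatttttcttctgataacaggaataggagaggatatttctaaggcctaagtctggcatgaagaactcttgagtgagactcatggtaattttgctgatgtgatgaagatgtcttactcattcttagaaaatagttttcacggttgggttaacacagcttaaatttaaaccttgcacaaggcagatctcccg
Dab2, downstream start, chr15:6386498-6386747, plus strand: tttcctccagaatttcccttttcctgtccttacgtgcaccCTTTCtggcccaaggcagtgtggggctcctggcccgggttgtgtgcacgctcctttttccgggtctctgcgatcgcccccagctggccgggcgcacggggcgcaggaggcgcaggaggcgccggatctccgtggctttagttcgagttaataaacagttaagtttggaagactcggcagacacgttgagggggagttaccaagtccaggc

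The 7 genes have 8 annotated starts in the RefSeq table, and 5 of these 8 held GAAAG on either strand, against 51.5% of all 32851 starts in a stretch of the same length. Cubn held 2 matches, Amn 1, the downstream Dab2 start 1, Fcgrt 1 and Pigr 2. Of the motifs of other gut factors, GATAA (GATA factors) stood before the upstream Dab2 start alone among the 8, against 22.6% of all starts. GTTAAT, a core of HNF1 sites, stood before the downstream Dab2 start alone, against 6.43%. No match overlapped another match. The motif thus stood before genes that fell (Cubn, Amn) and before genes that did not pass the test (Fcgrt, Pigr), at a share near that of all genes.

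Of the 7 genes, the 3 parts of the cubilin uptake route and Prdm1 fell in replacement cells, and the antibody receptors and megalin did not pass the test. That is 4 of 7 genes lower and 0 of 7 higher, against a background of 4.66% lower and 4.46% higher among the 12994 genes tested (limma with Benjamini-Hochberg adjustment, adjusted p under 0.05). The 7 genes were chosen with earlier results of these data known, so this contrast with the background is no test of them as a set. The same 4 genes had replacement arrays that all lay below the control arrays, a pattern found in 18.8% of all genes, and arrays did not overlap in either direction in 36.6%. Their differences lay between -1.47 and -0.98 on the log2 scale, where the median of all genes was -0.02. RNA was measured in bulk, so fewer cells of a type and less RNA per cell cannot be told apart.

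**Figure D1:**
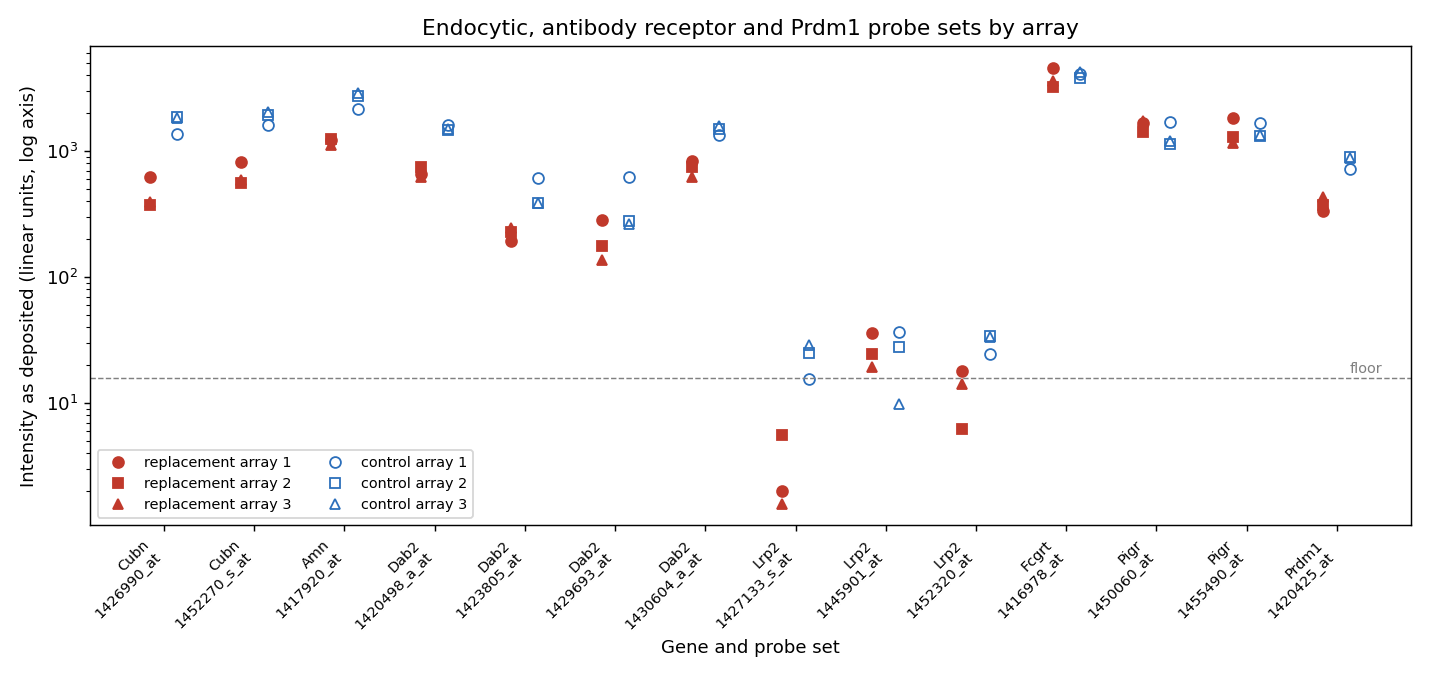
Intensity (linear units on a log axis) of the 14 probe sets in each array, with filled red symbols for the 3 replacement arrays, open blue symbols for the 3 control arrays, and a dashed line at the floor of 16. In Cubn, Amn and Prdm1 every replacement array lies below every control array, in Fcgrt and Pigr the symbols mix, and all Lrp2 readings lie near or under the floor.

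Cubn, the ligand-binding receptor, had 818, 555 and 588 intensity units in the replacement arrays, against 1601, 1949 and 2040 units in the control arrays (probe set 1452270_s_at). Every replacement array was below every control array, and the highest replacement array was the first. The level was 2.78-fold lower (log2 difference -1.47, SE 0.264, limma adjusted p = 0.00943), and 1.92% of all genes had a difference further below 0. A second probe set of the same gene, 1426990_at, had 621, 372 and 397 units in the replacement arrays, against 1365, 1873 and 1831 units in the control arrays. It put the fall at 3.53-fold (log2 difference -1.82, SE 0.307, limma adjusted p = 0.0242 over all probe sets), and the groups did not overlap there either. Cubn had the largest fall of the 7 genes by either probe set.

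Amn, the membrane anchor of cubilin, had 1220, 1249 and 1121 units in the replacement arrays, against 2153, 2739 and 2886 units in the control arrays. The replacement arrays lay close together and all below the control arrays. The level was 2.06-fold lower (log2 difference -1.04, SE 0.238, limma adjusted p = 0.0265). The intervals of the log2 differences overlapped, at -2.06 to -0.88 for Cubn and -1.58 to -0.51 for Amn (95%), and whether the receptor fell further than its anchor was not tested. In both genes control 1 was the lowest control array, by 0.32 for Cubn and 0.38 for Amn below the mean of the other control arrays on the log2 scale (control 1 minus the others -0.32 and -0.38).

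Dab2, the clathrin adaptor, was read by 4 probe sets, all lower in replacement cells. The brightest, 1430604_a_at, had 830, 750 and 624 units in the replacement arrays, against 1353, 1489 and 1571 units in the control arrays, with no overlap. It was 1.97-fold lower (log2 difference -0.98, SE 0.241, limma adjusted p = 0.0353). The log2 differences of the other probe sets were -1.19 (1420498_a_at), -1.13 (1423805_at) and -1.12 (1429693_at). In 1429693_at the groups overlapped: replacement 1 had 282 units, against 280 and 266 units in control 2 and control 3, and control 1 stood at 623 units. Control 1 was also the highest array in 1423805_at, at 607 units against 390 and 388 units in the other controls. The probe sets of Dab2 thus shared their direction but not the order of the control arrays.

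Dab2 is also made by macrophages, so their markers are given here. Of 9 listed macrophage genes 5 passed the filter, and the summed intensity of all 9 was 1243 to 1866 units in the replacement arrays and 2736 to 3254 units in the control arrays. Most of that sum was Csf1r, the receptor for colony stimulating factor 1, with 1271, 777 and 738 units in the replacement arrays, against 2427, 2443 and 2504 units in the control arrays, and it fell (log2 difference -1.44, limma adjusted p = 0.0143). The complement gene C1qa, also in the macrophage list, had 34.8, 2.00 and 4.50 units in the replacement arrays, against 73.4, 1.60 and 2.60 units in the control arrays, and C1qb and C1qc likewise lay under the floor in control 2 and control 3. Mrc1, the mannose receptor, rose by 2.19 on the log2 scale. In control 2 and control 3, Lyz2 (172.4 and 142.5 units) and Adgre1 (36.7 and 42.7 units) lay above the floor. So did Cd68 (34.4 and 46.6 units) and Mrc1 (26.8 and 24.9 units), while Itgam (5.70 and 6.00 units) lay under it. The macrophage markers thus differed among themselves in these arrays. The part of macrophages in the fall of Dab2 was not tested beyond these values.

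Lrp2 was close to the limit of the measurement. Its probe set with the highest mean, 1445901_at, had 35.8, 24.4 and 19.4 units in the replacement arrays, against 36.9, 27.7 and 9.80 units in the control arrays, with overlap and a log2 difference of -0.12 (SE 0.336, limma adjusted p = 0.875). Probe set 1452320_at had 17.9, 6.20 and 14.1 units in the replacement arrays, against 24.6, 34.3 and 33.7 units in the control arrays. There every replacement array was below every control array, but only 1 of 3 reached the floor, and the log2 difference of -0.80 did not pass over all probe sets (adjusted p = 0.134). The third, 1427133_s_at, had 2.00, 5.60 and 1.60 units in the replacement arrays, against 15.6, 25.0 and 29.1 units in the control arrays, and failed the filter. Its replacement readings were all below its control readings, but they and control 1 lay under the floor. The 3 probe sets thus differed among themselves. By 1445901_at the sign of the Lrp2 difference depended on the setting: it was above 0 in 6 of 18 alternatives. With the mean of the kept probe sets the log2 difference was -0.46 (limma adjusted p = 0.291).

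Fcgrt, the carrier of maternal IgG, was among the brightest of these probe sets, with 4586, 3222 and 3620 units in the replacement arrays, against 4115, 3785 and 4215 units in the control arrays. The highest and the lowest of the 6 values were both in replacement cells. The log2 difference was -0.11 (SE 0.247, 95% interval -0.66 to 0.45, limma adjusted p = 0.847), so a fall as large as that of Cubn lies outside its interval. Its partner B2m (beta-2 microglobulin), the light chain of the receptor, had a log2 difference of -0.56 (SE 0.273, adjusted p = 0.249).

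Pigr, the carrier of IgA, had 1684, 1421 and 1727 units in the replacement arrays, against 1688, 1132 and 1209 units in the control arrays (1450060_at). Control 1 matched the replacement arrays and the other controls were lower. The log2 difference was 0.19 (SE 0.256, 95% interval -0.38 to 0.77, limma adjusted p = 0.707). Its other probe set, 1455490_at, had 1815, 1287 and 1154 units in the replacement arrays, against 1665, 1320 and 1330 units in the control arrays, a log2 difference of -0.09. The probe sets thus gave opposite signs, each within the spread of the arrays.

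Prdm1, the repressor of the adult program, had 334, 374 and 436 units in the replacement arrays, against 723, 895 and 881 units in the control arrays. All replacement arrays were below all control arrays. The level was 2.11-fold lower (log2 difference -1.08, SE 0.244, limma adjusted p = 0.0252). Prdm1 is also made by plasma cells and T cells. Of 7 B and plasma cell genes on the array 3 passed the filter, with summed intensities of 94.3 to 122 units in the replacement arrays and 90.8 to 157 units in the control arrays. Of 8 T cell genes 1 passed, Cd3d, Cd3e and Cd3g were under the floor on all 6 arrays, and the sums were 86.7 to 130 units in the replacement arrays and 99.7 to 148 units in the control arrays. None of the genes of these lists that were tested passed the adjusted threshold.

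**Figure D2:**
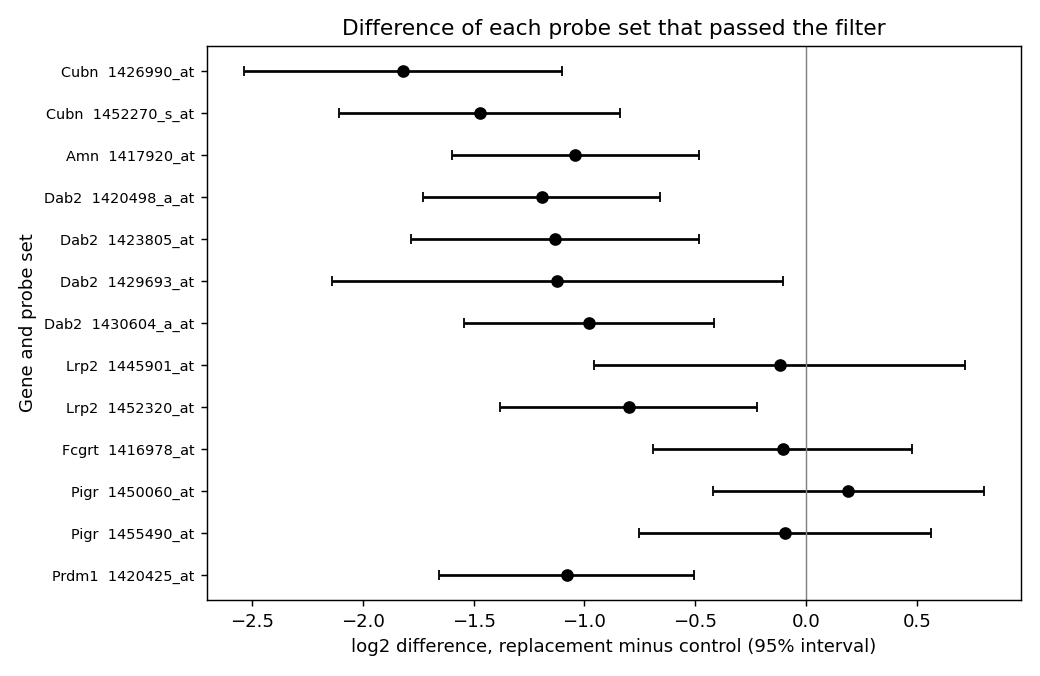
Log2 difference, replacement minus control, of the 13 probe sets that passed the filter, with 95% intervals from the limma fit over all probe sets (n = 3 replacement and n = 2 control). The intervals of the Cubn, Amn, Dab2 and Prdm1 probe sets lie below 0, as does that of 1452320_at of Lrp2, and those of Fcgrt, Pigr and the other Lrp2 probe set cross it.

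With each probe set tested on its own, fewer passed. Both Cubn probe sets and 1420498_a_at of Dab2 (adjusted p = 0.0353) were called among 13, against 1.83% called lower among 26664 probe sets. Amn (adjusted p = 0.0597) and Prdm1 (adjusted p = 0.0587) missed the threshold in that fit, as did the other Dab2 probe sets: 1430604_a_at, which stands for the gene (adjusted p = 0.0759), 1423805_at (0.0747) and 1429693_at (0.217). The calls also rested on few control replicates. None of the 4 genes passed without control 1 (adjusted p between 0.122 and 0.193) or without control 2 and control 3 together (between 0.192 and 0.242), fits that assume the lone control to vary like the other group. None passed without replacement 3 (0.0626 to 0.133), and Cubn alone passed without replacement 2 (adjusted p = 0.0446). In each of these fits the 4 log2 differences stayed below 0, the smallest being -0.85 for Amn without control 2 and control 3.

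**Figure D3:**
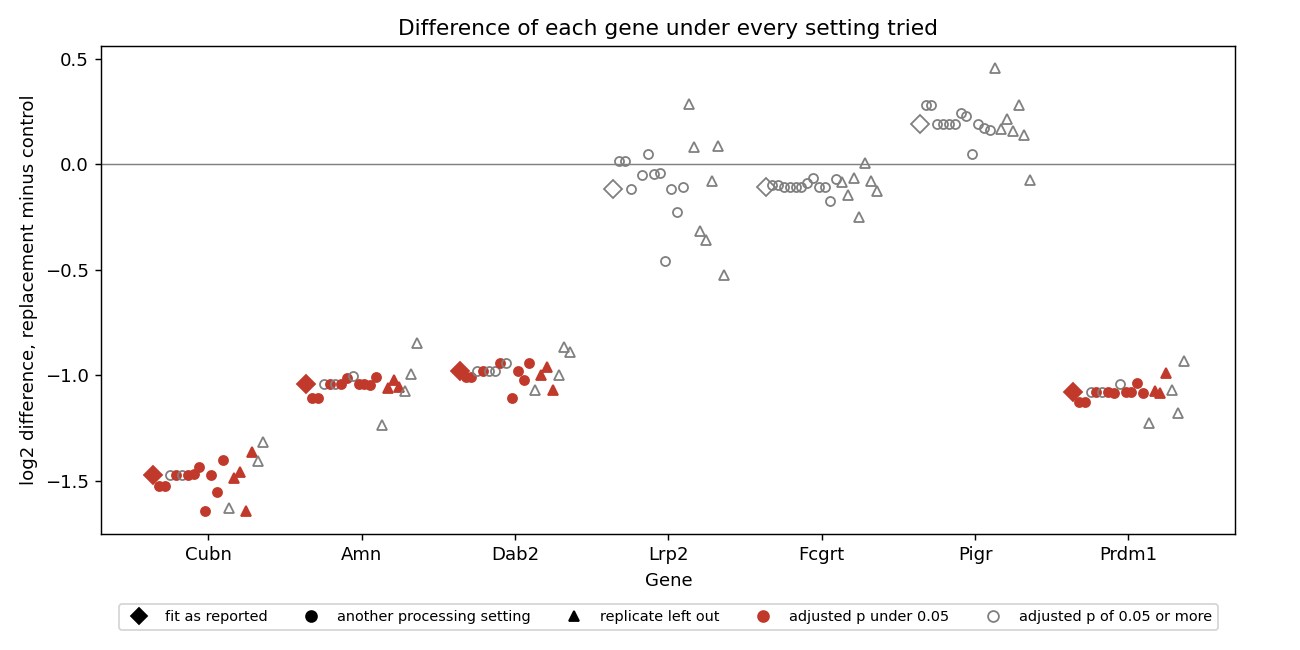
Log2 difference of each gene under every setting with a test: diamonds are the fit as reported, circles other processing settings and triangles fits with a replicate left out, filled red where the adjusted p was under 0.05. Cubn, Amn, Dab2 and Prdm1 stay between -1.65 and -0.85 throughout, while not every setting calls them, and Lrp2, Fcgrt and Pigr lie on either side of 0.

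With sex, read from Xist, as a term in the limma fit, all 4 calls held. The log2 differences were -1.40 for Cubn (adjusted p = 0.00486), -1.01 for Amn (0.0278), -0.94 for Dab2 (0.0366) and -1.08 for Prdm1 (0.0240). Control 1 was the only control array with high Xist. Within the control group, sex therefore cannot be told apart from the other ways in which control 1 differed. Among the arrays with high Xist alone (2 replacement arrays and 1 control array) the log2 differences were -1.49, -0.86, -0.98 and -0.84 for Cubn, Amn, Dab2 and Prdm1. Among those with low Xist (1 replacement array and the averaged controls) they were -1.29, -1.20, -0.88 and -1.41. Pigr differed in sign between these subsets, at -0.11 with high and 0.53 with low Xist, as did Fcgrt, at -0.27 and 0.20, and Lrp2, at -0.76 and 0.77. These subsets give values with no test.

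Protein uptake in the suckling gut is strongest in the ileum, so markers of position along the intestine bear on these values. Fabp6, the ileal bile acid binding protein, had 267, 287 and 686 units in the replacement arrays, against 0.300, 808 and 824 units in the control arrays. Control 1 thus lacked a signal for this ileal gene, where the other 5 arrays had one. Slc51b, a bile acid exporter of the ileum, had 236, 137 and 197 units in the replacement arrays, against 444, 756 and 763 units in the control arrays, and fell by 1.65 (limma adjusted p = 0.0135). Slc51a, its partner subunit, had a log2 difference of -0.80 (adjusted p = 0.118). Slc10a2, the ileal bile acid uptake transporter, lay the other way: it had 18.7, 66.5 and 38.2 units in the replacement arrays, against 0.800, 1.30 and 2.10 units in the control arrays, all under the floor, with a log2 difference of at least 1.18 that did not pass (adjusted p = 0.138). Onecut2, a factor of the proximal gut, had 238, 183 and 154 units in the replacement arrays, against 236, 48.6 and 42.6 units in the control arrays (log2 difference 0.86, adjusted p = 0.394). The other 5 proximal markers had differences below 0, none past the threshold: -0.87 for Lct, -0.67 for Cybrd1, -0.60 for Gata4, -0.36 for Slc40a1 and -0.32 for Fabp1. The summed intensity of 6 distal markers was 3630 to 5287 units in the replacement arrays and 4141 to 8124 units in the control arrays. That of 6 proximal markers was 7581 to 11884 units in the replacement arrays and 12996 to 13709 units in the control arrays, so the proximal sums did not overlap and the distal sums did. These sums rested mostly on few bright genes. The brightest distal gene on every array was Guca2a (log2 difference -0.10, limma adjusted p = 0.901). Most of the proximal sums was Fabp1, Lct and Slc40a1, and Fabp1 is also in the enterocyte list. Cubn in control 1, the array at 0.300 units of Fabp6, lay above all replacement arrays and below the other control arrays. On the log2 scale, control 1 minus the mean of the other controls was -0.32 for Cubn and -0.38 for Amn. It was -0.30 for Prdm1 and -0.18 for the brightest Dab2 probe set, while the other Dab2 probe sets had control 1 as the highest array. The part of position along the gut in the falls was not tested.

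Control 1 also stood apart for markers of stromal cells. The summed intensity of 7 fibroblast genes was 384, 438 and 491 units in the replacement arrays, against 1187, 200 and 208 units in the control arrays. That of 8 endothelial genes was 166, 93.6 and 114 units in the replacement arrays, against 261, 83.4 and 78.1 units in the control arrays, and that of 6 smooth muscle genes was 256, 153 and 164 units in the replacement arrays, against 344, 173 and 186 units in the control arrays. Control 1 was the highest of the 6 arrays in all 3 sums and in the Dab2 probe sets 1423805_at, 1429693_at and 1420498_a_at, but the lowest control array in the brightest Dab2 probe set. No gene of these 3 lists that was tested passed the threshold, and the part of stromal cells in the values of Dab2 was not tested.

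**Figure D4:**
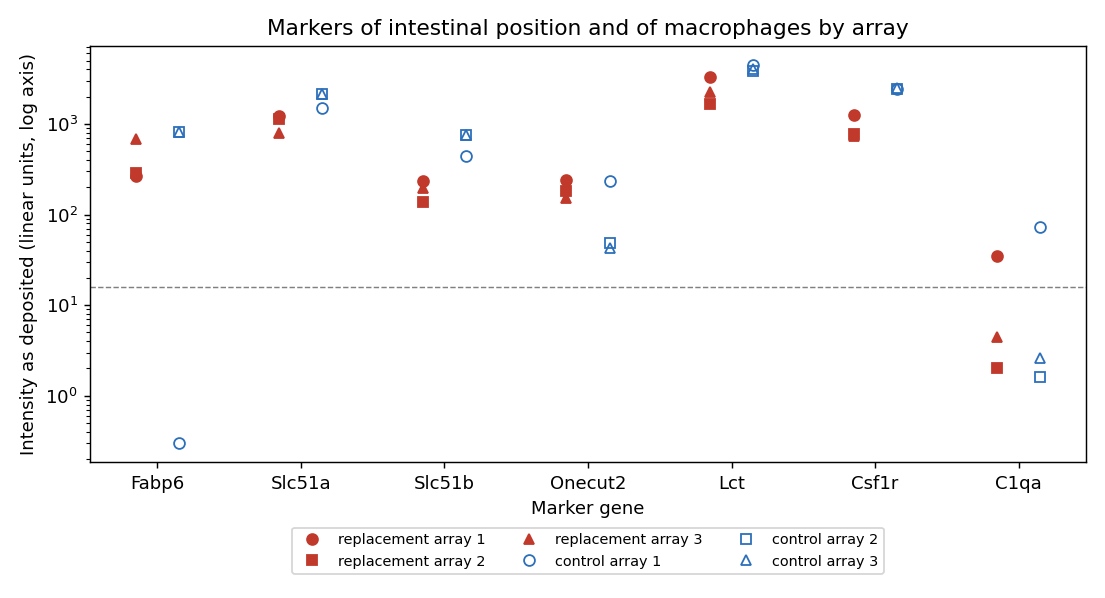
Intensity (linear units on a log axis) of 7 marker genes in each array, with filled red symbols for replacement and open blue symbols for control arrays, and a dashed line at the floor of 16. Control 1 stands apart for Fabp6 (0.300 units) and Onecut2 (236 units), and Csf1r is lower in all 3 replacement arrays than in all 3 control arrays. The 7 genes were picked after their values were seen. Not shown are the macrophage marker Mrc1 (log2 difference 2.19) and the ileal marker Slc10a2 (at least 1.18), which lay the other way.

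The other genes of the route were read from 11 lists with 164 distinct genes, of which 140 were measured. Among these, 8 were higher and 11 lower, together 13.6% against 9.12% of all genes. The lists too were chosen with earlier results of these data known, so that contrast is no test of the lists. Over all genes 4.66% were called lower and 4.46% higher, and 52.0% of differences were below 0, so 1 call in a list of 20 genes is near the share of all genes. Without control 1 the counts were 0 and 1, and without control 2 and control 3 together 0 and 0. Leaving out replacement 2 gave 5 higher and 4 lower genes, and leaving out replacement 3 gave 4 and 5.

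Of 20 measured genes of the clathrin coat and its adaptors 1 fell and none rose, against 4.66% lower and 4.46% higher among all genes, and the list median was -0.22. The gene that fell is a relative of Dab2. Dab1, the adaptor of the reelin receptors, had 91.0, 77.2 and 98.8 units in the replacement arrays, against 407, 394 and 381 units in the control arrays, 4.48-fold lower (log2 difference -2.16, SE 0.235, limma adjusted p = 7.88e-04). All 5 of its probe sets were lower, with log2 differences of -2.73 to -1.29. The clathrin heavy chain Cltc (-0.07), the light chain Clta (-0.22), the AP2 subunit Ap2m1 (0.10) and the motor Myo6 (-0.14) had values near that of all genes. In the LDL receptor family, to which megalin belongs, 2 of 11 measured genes rose and none fell, with a median of 0.05. They were the reelin receptors Lrp8 (1.24, SE 0.228) and Vldlr (1.01, SE 0.255), both dim, with 2 of 3 control arrays of Lrp8 under the floor. The probe set of Vldlr ends in x_at, so other transcripts may bind to it, and its 3 probe sets gave 0.20 to 1.01. Lrp1 (-1.10, adjusted p = 0.115) did not pass.

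In the list of apical endosomes and recycling, 1 of 20 genes fell and none rose, near the 4.66% called lower among all genes. Of its differences 15 of 20 were below 0, against 52.0% of all genes, with a median of -0.37. Rab11fip5, an effector of the recycling GTPase Rab11, had 416, 349 and 506 units in the replacement arrays, against 1018, 1049 and 1004 units in the control arrays, 2.44-fold lower (adjusted p = 0.0127), and its probe sets gave -1.66 and -1.29. The chloride-proton exchanger Clcn5, needed for uptake by cubilin and megalin in the kidney, had -0.86 (adjusted p = 0.0647, also by an x_at probe set, with -1.21 to 0.16 over 4 probe sets), and Rab17 had -0.86 (adjusted p = 0.0873). Mamdc4, the apical endosomal glycoprotein of suckling enterocytes, had -0.63 (adjusted p = 0.149). None of these last 3 passed the test.

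The lysosome, where the cargo ends, had 5 of 18 measured genes lower and 1 higher, against 4.66% and 4.46% of all genes. Of its differences 17 of 18 were below 0, against 52.0% of all genes, and the median was -0.55. The proteases Ctsa (2.12-fold) and Tpp1 (2.06-fold), the sialidase Neu1 (2.08-fold) and the beta-galactosidase Glb1 (1.94-fold) were lower, as was Tfeb, a transcription factor of lysosomal genes, at 43.9, 36.9 and 36.7 units in the replacement arrays against 111, 105 and 93.1 units in the control arrays (2.68-fold, adjusted p = 0.00596). The 3 probe sets of Neu1 gave -1.22 to -0.07. Ctsc (cathepsin C) rose by 1.60 (SE 0.224), with a range of 0.23 to 1.60 over its 3 probe sets. The abundant proteases Ctsb (-0.25), Ctsd (-0.07) and Ctsl (-0.27) did not pass by their brightest probe sets. Dimmer probe sets gave log2 differences further below 0, down to -1.68 among 5 for Ctsb and -1.37 among 2 for Ctsl.

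**Figure D5:**
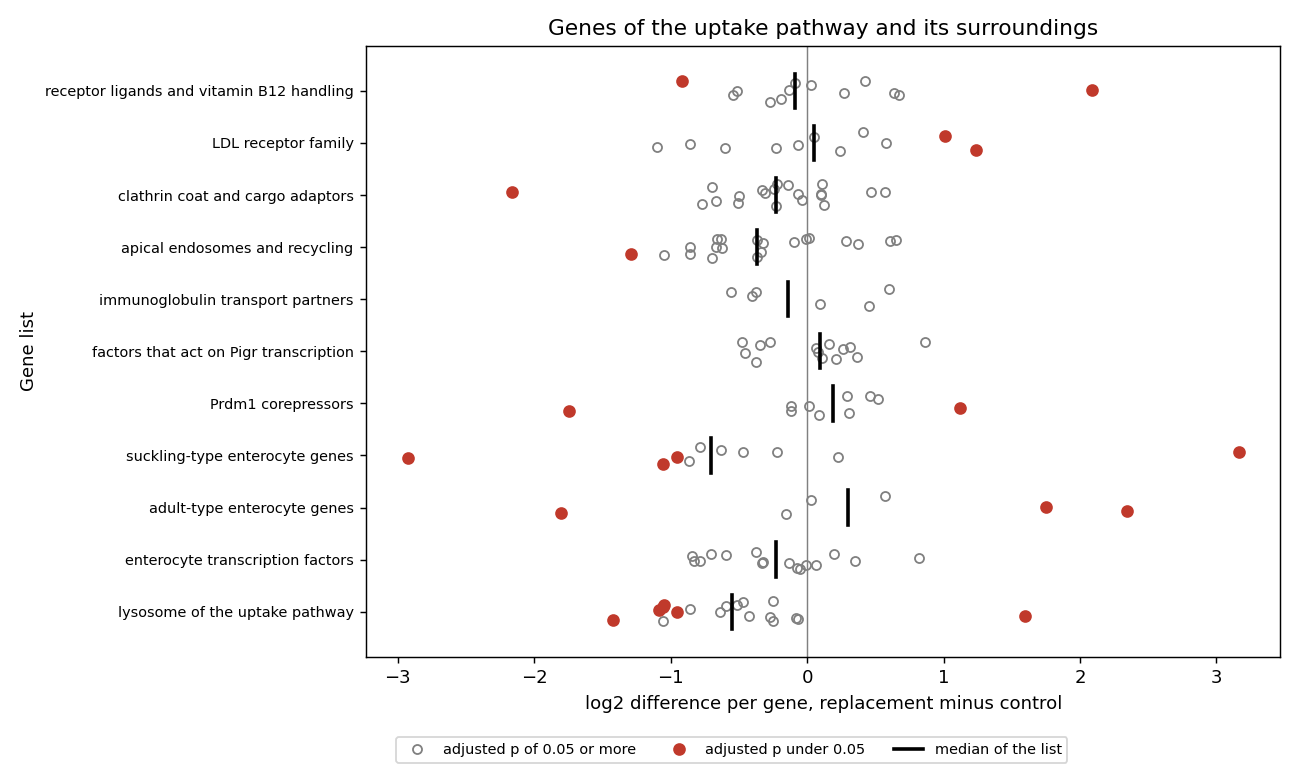
Log2 difference, replacement minus control, of each measured gene in the 11 lists, filled red where the limma adjusted p was under 0.05, with a black bar at the median of each list. The lists of suckling-type genes and of the lysosome, which share Neu1 and Glb1, have medians of -0.71 and -0.55, and the others lie between -0.37 and 0.30.

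Of 13 measured ligand and vitamin B12 genes 1 rose and 1 fell, near the 4.46% and 4.66% of all genes, with a median of -0.09. Abcc1, an exporter of vitamin B12 and many other compounds, rose 4.25-fold (adjusted p = 0.00180), while Abcd4, which moves the vitamin out of lysosomes, had -0.92 (adjusted p = 0.0440) by a probe set whose companion gave 0.90. Lrpap1, the chaperone of megalin, had -0.54 (adjusted p = 0.276). Among 6 measured partners of immunoglobulin transport and 14 factors that act on Pigr transcription, none passed in either direction, with medians of -0.14 and 0.10. The value closest to the threshold was that of Relb, a subunit of NF-kB, at 0.86 (adjusted p = 0.0510).

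Of 10 measured corepressors, which carry out the silencing by Prdm1, 1 fell and 1 rose, against 4.66% and 4.46% of all genes. Tle3 of the Groucho family fell 3.36-fold (adjusted p = 0.00297) and the arginine methyltransferase Prmt5 rose 2.18-fold (adjusted p = 0.0458), and the list median was 0.19. Of 10 measured suckling-type enterocyte genes 3 fell, Afp (alpha-fetoprotein), Neu1 and Glb1, and 1 rose, against the same shares of all genes. The list median was -0.71. Neu1 and Glb1 are also in the lysosome list above, so the counts and medians of these lists are not separate results. Afp differed among the controls, with 25.8, 30.7 and 30.5 units in the replacement arrays, against 78.5, 639 and 592 units in the control arrays. The gene that rose was Gcnt1, a glycosyltransferase, which was under the floor in all 3 control arrays and at least 8.97-fold higher in replacement cells by its brightest probe set (log2 difference at least 3.16), while a dimmer one gave 1.04. Lct (lactase, -0.87, adjusted p = 0.117) and the transcription factor Maf (-0.78, adjusted p = 0.0620, and -1.30 to -0.70 over 5 probe sets) did not pass.

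Of 6 measured adult-type genes 2 rose and 1 fell, against 4.46% and 4.66% of all genes, with a median of 0.30. Arg2 (mitochondrial arginase), an adult enterocyte marker in the mouse, had 536, 536 and 363 units in the replacement arrays, against 187, 38.4 and 54.6 units in the control arrays, 5.09-fold higher (adjusted p = 0.0196), and no array overlapped. Fut2, the fucosyltransferase of the gut surface, was under the floor in all control arrays and at least 3.36-fold higher by its brightest probe set (log2 difference at least 1.75), while a dimmer one gave 0.95. Slc2a2, the basolateral glucose transporter, fell 3.48-fold. Treh (trehalase, 0.03) and Mgam (maltase-glucoamylase, 0.57) did not pass, and Sis (sucrase-isomaltase) was not analysed here. None of 16 measured enterocyte transcription factors passed, with a median of -0.23.

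Among all genes, those closest to 3 of these in pattern over the 6 arrays were taken by the root mean square difference of centred log2 values. For Cubn they were Cmtm8 (0.0692), St3gal3 (0.0949) and Uap1l1 (0.0973). Cmtm8, the nearest, had 200, 127 and 141 units in the replacement arrays, against 395, 523 and 510 units in the control arrays, so its first replacement array was the highest of the 3, as in Cubn. For Prdm1 the nearest were Tnfsf10 (0.0730), Tmem144 (0.0759) and Lrrc57 (0.0896). For Pigr they were Fcho1 (0.0471), Hirip3 (0.0559) and Ccdc184 (0.0572). Within the set itself Amn and Dab2 were closest to each other (0.120), followed by Amn and Prdm1 (0.158), while Cubn and Pigr lay furthest apart (0.958).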

How the data were processed

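The authors deposited linear probe set intensity values, which they had scaled: with 2% trimmed at each end, every array averaged 100. GCRMA and limma appear in the submitters' processing notes, with no role, and how probes were summarized into these linear values is not stated there. Values were floored at 16, log2 was taken, and probe sets with at least 3 of 6 arrays at 16 or above were kept (26664). Genes were named by the platform annotation, updated by Entrez identifier (assembly GRCm38.p6), and each gene was represented by its brightest probe set on average (12994 genes). Groups were compared with lmFit and eBayes of limma 3.58.1 (R 4.3.3), with Benjamini-Hochberg adjustment over all genes or probe sets and a threshold of 0.05. SEs are those of the moderated fit. Figures were drawn with matplotlib 3.10.9. A bound ("at least") is given where every array of a group lay under the floor. For arrays, their number limits the precision. Simulated data with 200 changed genes were used to test the code.

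The 7 genes and the lists were chosen with earlier results of these data known. Named genes are these 7, the listed genes past the threshold or among the 4 smallest p of their list, and the 3 nearest in pattern to Cubn, Pigr and Prdm1; other listed genes and all single marker genes were picked after their values were seen. Whether the replicate numbers of the labels pair the arrays is unknown here, and the fit as reported used no pairing. Deviations of same-numbered arrays from their group means correlated at 0.21, 0.08 and 0.14, and control 2 correlated at 0.12 with replacement 3. Control 2 and control 3 were nearly alike, so these values cannot decide whether the arrays were paired. Alternatives were other replicate handling, filters, floors, scalings, probe set choice, eBayes options, array weights, a sex term and each array left out.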

Additional observations from a re-analysis of the deposited data

How the results depend on the processing

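The falls of Cubn, Amn, Dab2 and Prdm1 kept their direction in all 19 alternatives with a test, and Cubn was called in 14 of them, Amn and Prdm1 in 12 each and Dab2 in 11. As reported, 4 of the 7 genes were lower, with 580 genes higher and 605 lower in all, and 8 higher and 11 lower in the lists. With all 6 arrays as separate replicates there were 1118 higher and 1234 lower genes and 23 lower in the lists (probe sets 1624 and 1390, against 588 and 488 as reported), and Lrp2 turned to 0.017. With the replicate block on 6 arrays the counts were 994 and 1108, and 26 in the lists, Lrp2 stood at 0.017, and the 4 calls held; arrays did not all correlate best with their own number. No filter gave 70 and 92 genes and a floor of 32 gave 143 and 147, each with 0 of the 7 called, and the cause was not tested. With no floor 389 genes were lower and Lrp2 stood at 0.049. Scaling to the array medians gave 384 lower genes, 6 lower in the lists and 1 of the 7 (Cubn). Array weights gave 884 and 926. Leaving out 1 array gave 8 to 827 higher and 3 to 833 lower genes, 0 to 4 of the 7 lower, and 0 to 9 higher and 1 to 16 lower in the lists, with Lrp2 at -0.36 to 0.29 and Fcgrt at -0.25 to 0.01 (0.0072 without replacement 2). Without control 2 and control 3 together 3 genes were higher and 1 lower, 0 of the 7 and 0 and 0 in the lists, and Pigr stood at -0.073. Chosen after seeing the data, subsets by Xist turned Pigr to -0.11 (high), and Lrp2 to 0.77 and Fcgrt to 0.20 (low). Other settings changed no call of the 7 except that Dab2 missed the threshold with no floor (adjusted p = 0.0592). Signal near the floor limits what can be said of Lrp2.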
